A study of Mus musculus with 9 samples.

Results

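Regulatory T cells (Tregs) of the heart-draining mediastinal lymph node (MLN) were compared with Tregs of the spleen, with 3 libraries from each organ. They were taken by the labels of the samples and are 6 of the 9 libraries in the study. The other 3 hold Tregs of the injured heart and entered the filter on low counts, the scaling and the estimate of spread. All mice were Foxp3-GFP mice, in which green fluorescence marks cells with Foxp3, the defining transcription factor of Tregs. All were 8 weeks old and all were sampled 3 days after ischemia/reperfusion (I/R) injury, in which blood flow to the heart is blocked and then restored. No uninjured group enters, so the comparison is between organs of injured animals. Cells were enriched with magnetic beads, sorted by flow cytometry and caught in lysis buffer, and libraries came from a SMARTer kit for very low RNA input, which amplifies cDNA by PCR. The labels name neither the animal nor the pool behind a library, so a p-value here reflects the spread of these samples alone, and that spread may be technical.

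Both organs filter immune cells out of circulation, but by different routes. Naive T cells and most resting Tregs enter a lymph node from the blood through the chemokine receptor Ccr7 and leave with the lymph under S1pr1, whereas the spleen has no such high endothelial entry and filters blood through its marginal zone and a red pulp rich in macrophages. Resting Tregs of such organs carry naive T cell genes, and activated or effector Tregs carry genes such as Icos, Klrg1 and Gzmb. The comparison therefore asks what distinguishes Tregs of the node that drains the injured heart from Tregs of an organ that does not drain it.

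Values below are CPM, counts set against the total of each library and scaled between libraries, always in the order of libraries 1, 2 and 3. A difference is log2 of MLN over spleen, so a positive value is higher in the MLN, with its standard error (SE). Total counts were 156194012 to 233749879 in the spleen and 213834915 to 221872020 in the MLN. The third library stood apart in each organ: spleen 3 and MLN 3 had scaling factors of 1.24 and 1.17, and B2m, the small invariant chain of class I histocompatibility proteins, took 1.20% and 1.55% of their counts against 2.38% to 2.65% in the other 4. Correlation of log2(CPM + 1) across tested genes was 0.838 to 0.892 between spleen libraries, 0.889 to 0.936 between MLN libraries and 0.834 to 0.912 (median 0.878) for the 9 pairs of a spleen with an MLN library. Pairs across the lymphoid organs thus covered the range of pairs within the spleen. Pairs of a lymphoid with a heart library gave 0.716 to 0.804. Genes within a library are not independent replicates, so these correlations describe the libraries only.

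**Figure D1:**
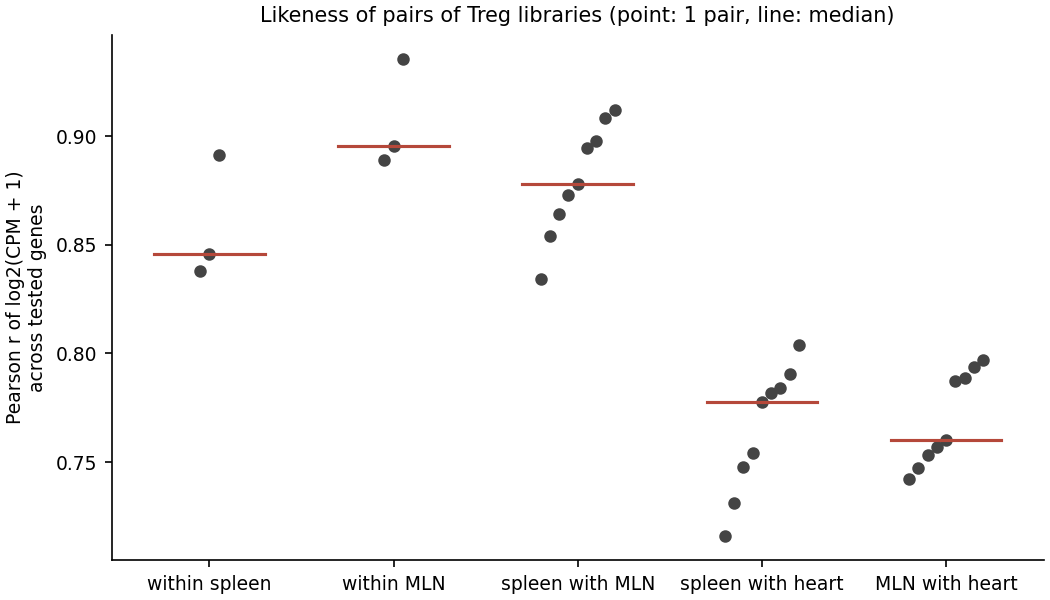
Pearson correlation of log2(CPM + 1) across the 16609 tested genes (vertical axis) for pairs of Treg libraries, grouped by the organs of the pair (horizontal axis); each point is 1 pair and the red line is the median of the group. The 9 spleen with MLN pairs (0.834 to 0.912) span the range of the pairs within the spleen (0.838 to 0.892), and all lie above the pairs of a spleen or MLN library with a heart library (0.716 to 0.804).

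No gene passed the test between MLN and spleen Tregs. Of 16609 genes tested with edgeR's quasi-likelihood test and Benjamini-Hochberg adjustment, 0 (0%) were called at an adjusted p below 0.05, and 955 (5.75%) had an unadjusted p below 0.05, 399 (2.4%) higher in the MLN and 556 (3.35%) higher in the spleen. The smallest edgeR adjusted p was 0.110, shared by Ptpro, Aph1c and Gpsm2. In the same model 131 genes (0.789%) were called between heart and spleen and 230 (1.38%) between heart and MLN. All 3 MLN libraries lay on 1 side of all 3 spleen libraries for 1508 genes (9.08%), 751 (4.52%) with the MLN higher and 757 (4.56%) with the spleen higher. The 16609 genes include 441 with no count in any of the 6 lymphoid libraries, which passed the filter through the heart libraries.

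Other tools gave other counts. limma-voom called 3 genes (0.0181%; 838 at an unadjusted p below 0.05), each at an adjusted p of 0.0414. They were Gpsm2, given below, Gja5 and Aph1c. Gja5, the gap junction protein connexin 40, was at no count in the spleen and 7.12, 4.29 and 5.22 CPM in the MLN. Aph1c, a subunit of the gamma-secretase protease, was at 6.63, 2.62 and 3.93 CPM in the spleen and no count in the MLN. DESeq2 called 785 genes (4.73%), 370 higher in the MLN and 415 higher in the spleen. Of those 785, 665 had no count in at least 1 of the 6 libraries, 625 had none in a whole organ, and 240 had libraries that did not overlap between organs. Among genes with counts in all 6 libraries DESeq2 called 120, and 113 of them did not overlap.

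The lack of calls does not show that the organs are alike, because the intervals were wide. Of 7919 genes with a mean of at least 10 CPM in either organ, the median SE of the log2 difference was 0.649. The 95% interval lay within 1 log2 unit of 0 for 285 of them (3.60%) and within 2 units for 4092 (51.7%). For most genes the interval thus reached past 1 log2 unit. In what follows a gene is described by its values, and "non-overlapping" means that all 3 libraries of 1 organ lay above all 3 of the other.

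**Figure D2:**
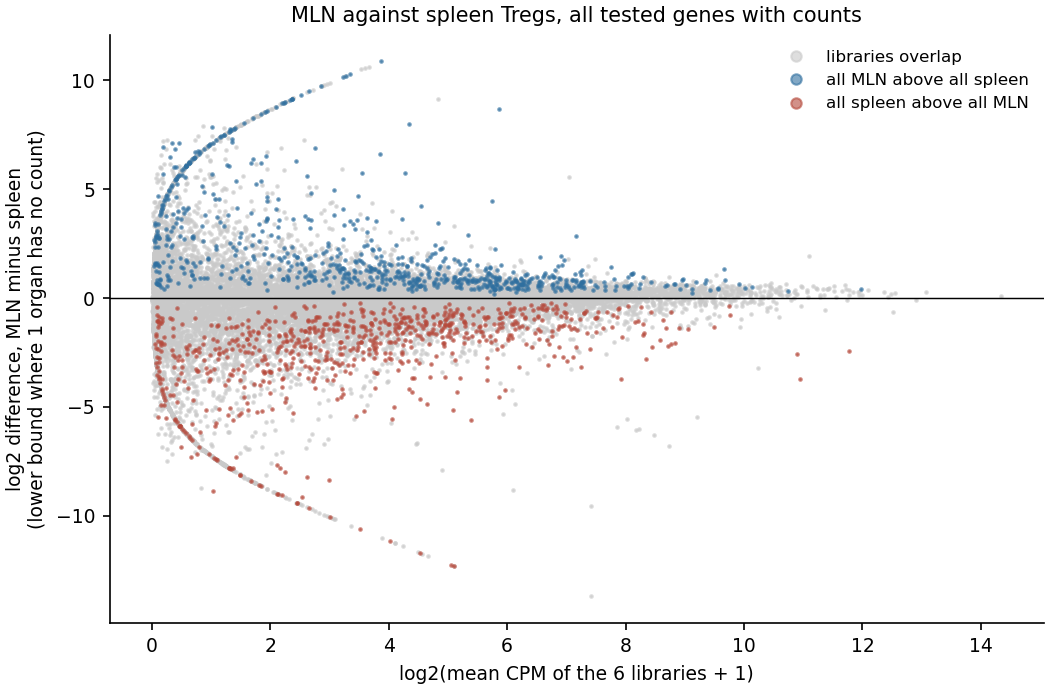
Log2 difference of MLN minus spleen (vertical axis) against log2 of the mean level of the 6 libraries plus 1 CPM (horizontal axis), 1 point per tested gene with counts; coloured genes have non-overlapping libraries (blue, 751 with the MLN higher; red, 757 with the spleen higher). The curved edges are genes with no count in 1 organ, drawn at their lower bound for a floor of 3 counts per library.

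Genes were grouped into 18 lists of Treg and T cell function, 15 marker lists of other cells and 2 lists of RNA quality, which are described by counts and medians. Of 328 tested genes in the function lists, 14 (4.27%) were non-overlapping with the MLN higher, against 4.52% of all tested genes, and 29 (8.84%) with the spleen higher, against 4.56%. None was called by edgeR. Counts of non-overlapping members below are to be read against these shares of all tested genes, 4.52% and 4.56%. The median log2 difference over all tested genes was -0.03. The first 3 genes of every list are given with all 6 values, and list members named beyond those were chosen after their values were seen.

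Genes that define Tregs were present in every library of both organs. The Treg identity list had a median log2 difference of 0.05 over 19 members, 12 positive and 7 negative (median 0.31 with 16 positive without spleen 3), and took 0.385%, 0.452% and 0.642% of counts in the spleen and 0.523%, 0.539% and 0.454% in the MLN. Foxp3 (ENSMUSG00000039521, chromosome X, 7573644 to 7595245, mm10) was at 31.2, 32.6 and 187 CPM in the spleen and 42.4, 41.8 and 46.3 CPM in the MLN (log2 -0.94, SE 1.32). Spleen 3 lay far above the other 5 libraries, and without it the difference had the other sign (log2 0.45). Il2ra, the high-affinity chain of the IL-2 receptor on which Tregs depend for survival, was at 245, 383 and 419 CPM in the spleen and 660.1, 526 and 472 CPM in the MLN (log2 0.66, SE 0.35, 95% interval -0.13 to 1.45), and the organs did not overlap. Ikzf2, the gene of Helios, a factor of most thymus-derived Tregs, was at 1551, 1709.6 and 1077 CPM in the spleen and 1998, 2093 and 936 CPM in the MLN (log2 0.21, SE 0.39, 95% interval -0.68 to 1.10).

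Other surface molecules of Tregs were spread over both organs. Ctla4, the inhibitory receptor that strips costimulatory ligands from antigen-presenting cells, was at 644, 545 and 926 CPM in the spleen and 793, 798 and 564 CPM in the MLN (log2 0.03, SE 0.35). This is among the best-measured members, with a 95% interval of -0.77 to 0.83. Entpd1, which encodes CD39, the enzyme that breaks down extracellular ATP on the way to adenosine, was at 19.6, 21.4 and 17.1 CPM in the spleen and 7.92, 11.7 and 7.85 CPM in the MLN (log2 -1.08, SE 0.44), non-overlapping with the spleen higher. Nt5e, which encodes CD73, the next enzyme of that pathway, was at 62.6, 74.5 and 96.1 CPM in the spleen and 61.6, 101 and 78 CPM in the MLN, and its organs overlapped. Il2rb, the signalling chain of the IL-2 receptor, was at 111, 187 and 933 CPM in the spleen and 75.5, 129 and 125 CPM in the MLN, again with its highest value in spleen 3. In all, 7 of the 19 members had their highest value in spleen 3. Without libraries 3 of both organs, 9 of the 19 members were non-overlapping, where 34% of all tested genes were. The MLN was higher in 7 of these and the spleen in 2, against 18.8% and 15.2% of all tested genes.

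**Figure D3:**
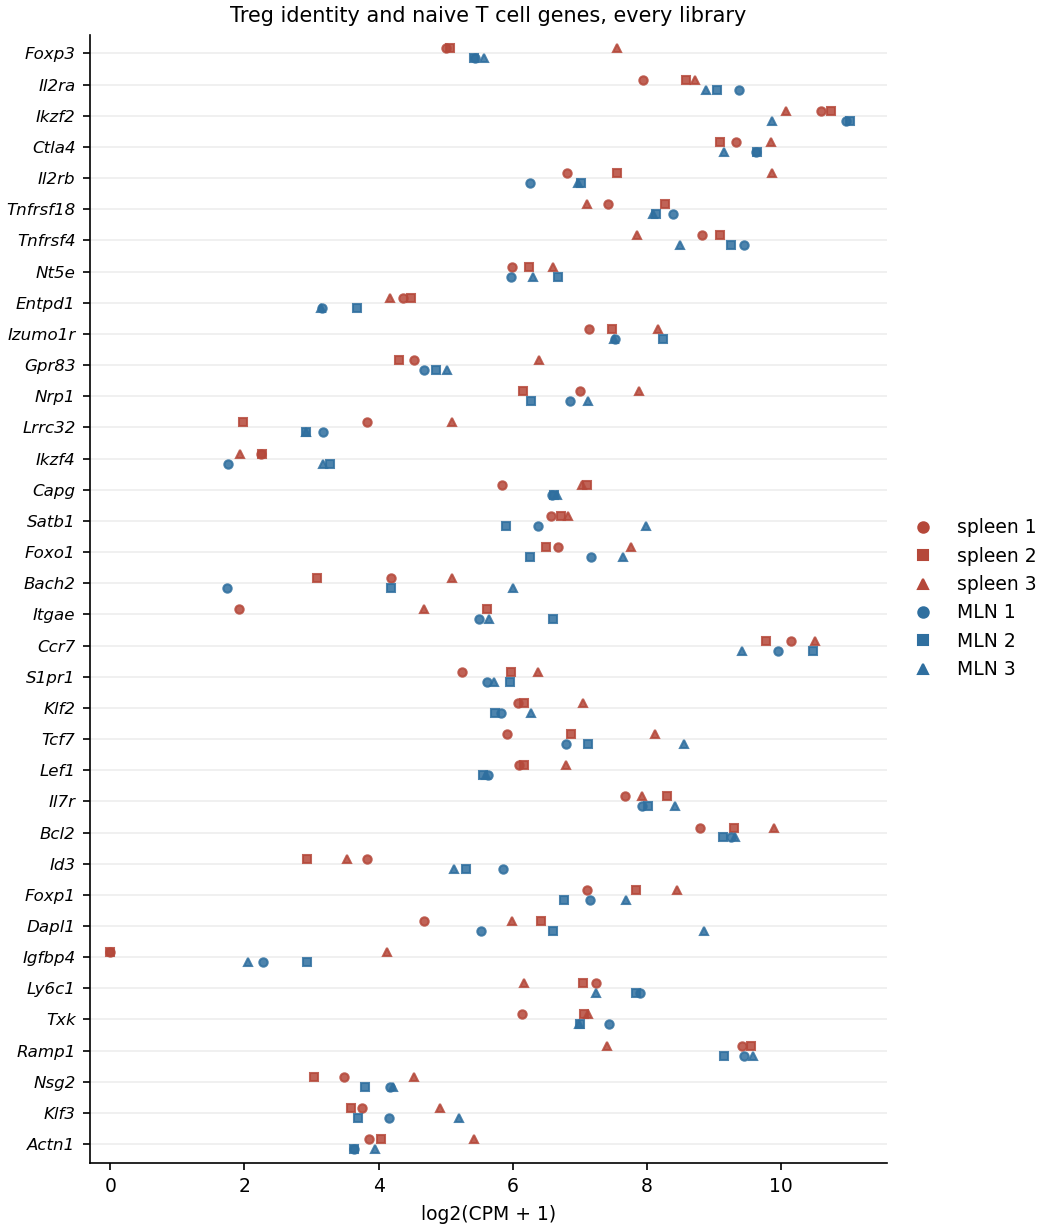
Level as log2(CPM + 1) (horizontal axis) of each Treg identity gene (Foxp3 to Itgae) and each further naive T cell gene (Ccr7 to Actn1) in the 3 spleen (red) and 3 MLN (blue) libraries, with the symbol's shape giving the library number. For most genes the organs overlap; the MLN points lie above the spleen points for Il2ra and Id3, and below them for Entpd1 and Lef1.

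Among naive and recirculation genes the 20 members had a median log2 difference of 0.28. Of them, 2 (10%, against 4.52% of all tested genes) were non-overlapping with the MLN higher. With the spleen higher, 1 (5%, against 4.56%) was non-overlapping. Ccr7, the receptor for the T zone chemokines, was at 1133, 879 and 1449.98 CPM in the spleen and 994, 1418 and 679.96 CPM in the MLN (log2 -0.16, SE 0.77). S1pr1, the receptor for exit into lymph, was at 36.9, 61.7 and 81.8 CPM in the spleen and 48.2, 61.4 and 51.5 CPM in the MLN (log2 -0.16, SE 0.45). Neither Ccr7 nor S1pr1 separated the organs. Id3, which encodes an inhibitor of E protein transcription factors that naive and follicular T cells carry, was at 13.2, 6.66 and 10.5 CPM in the spleen and 57, 38.6 and 33.8 CPM in the MLN (ENSMUSG00000007872, chromosome 4, 136143497 to 136145755), a log2 difference of 2.09 (SE 0.51, adjusted p = 0.839 by edgeR), and every MLN library lay above every spleen library. Lef1, a transcription factor of naive T cells that works beside Tcf7, was at 67.2, 71.1 and 109 CPM in the spleen and 48.5, 46 and 47.6 CPM in the MLN (log2 -0.80, SE 0.35), with the spleen higher. The few non-overlapping members of this list thus went in both directions.

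Homing and egress receptors had a median log2 difference of 0.05 over 23 members. Cxcr4, the receptor for the stromal chemokine Cxcl12, was at 6.63, 14 and 10.6 CPM in the spleen and 9.09, 6.36 and 9.23 CPM in the MLN (log2 -0.34, SE 0.66), and its organs overlapped. Itga4, the alpha-4 integrin chain that pairs with beta-1 or beta-7, was at 215, 229 and 145 CPM in the spleen and 98.2, 78.2 and 127 CPM in the MLN (log2 -0.96, SE 0.38), non-overlapping with the spleen higher. Its partner Itgb7 was at 52.6, 72.3 and 516 CPM in the spleen and 72.7, 90.7 and 80 CPM in the MLN, with 516 CPM in spleen 3 alone. Ccr9, a receptor of gut-homing and thymic T cells, was at 1.9, 6.16 and 21.1 CPM in the spleen and 54.8, 15.3 and 71.2 CPM in the MLN (log2 2.28, SE 1.19), and the organs overlapped because spleen 3 lay above MLN 2. Cxcr6, a receptor of tissue-seeking T cells, was at 29, 54.4 and 11.4 CPM in the spleen and 129, 81.9 and 16.7 CPM in the MLN. Its lowest values were in the libraries numbered 3 of both organs.

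Effector Treg genes had a median log2 difference of -0.70 over 25 members, 7 positive and 18 negative. Without spleen 3 the median was -0.16, with 16 negative. Icos, the costimulatory receptor of activated Tregs, was at 536, 535 and 366 CPM in the spleen and 1615, 905 and 461 CPM in the MLN (log2 1.05, SE 0.49), with MLN 3 below 2 of the spleen libraries. Klrg1, a receptor of terminally differentiated Tregs, was at 74.6, 296 and 142 CPM in the spleen and 46.1, 26.5 and 88.5 CPM in the MLN (log2 -1.67, SE 0.62, 95% interval -3.08 to -0.26), and the organs overlapped because MLN 3 lay above spleen 1. Il1rl1, which encodes the IL-33 receptor ST2 of tissue Tregs, was low in both organs, at 9.69, 4.74 and 5.48 CPM in the spleen and 4.75, 6.52 and 3.09 CPM in the MLN. Gzmb, the protease granzyme B, was at 96.9, 222 and 208 CPM in the spleen and 493, 321 and 306 CPM in the MLN (log2 1.09, SE 0.40, 95% interval 0.17 to 2.00), and was the only member of the list non-overlapping with the MLN higher.

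The members non-overlapping with the spleen higher were Cd44, Nfil3 and Ebi3. Cd44, the hyaluronan receptor of antigen-experienced T cells, was at 177, 211 and 323 CPM in the spleen and 170.1, 138 and 78.6 CPM in the MLN (log2 -0.88, SE 0.43). Nfil3, a transcription factor of T cells and innate lymphocytes, was at 81.9, 105 and 128 CPM in the spleen and 42.7, 39.6 and 5.19 CPM in the MLN (log2 -1.85, SE 0.75). Ebi3, a chain shared by IL-27 and IL-35, was at 26, 37.8 and 17 CPM in the spleen and 14.7, 15.4 and 0 CPM in the MLN (log2 -1.43, SE 1.72), and MLN 3 had no count. For all 3 genes the lowest value of the 6 libraries was in MLN 3. Without libraries 3 the effector list had 6 of 25 members non-overlapping in each direction, where 18.8% of all tested genes were with the MLN higher and 15.2% with the spleen higher.

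Helper T cell factors and cytokines had a median log2 difference of -0.45 over 20 members with a value, and of -0.37 over 21 fitted members. Without spleen 3 the fitted median was 0.35, with 13 positive and 8 negative. Without libraries 3 of both organs it was 0, with 10 positive and 10 negative. The sign of the list thus turned on the libraries numbered 3. Tbx21, the Th1 factor T-bet, was at 8.18, 0 and 108 CPM in the spleen and 1.32, 1.72 and 13.7 CPM in the MLN (log2 -2.80, SE 2.80). Gata3, the Th2 factor that effector Tregs also use, was at 26.7, 27.3 and 187 CPM in the spleen and 19.8, 24.7 and 45.6 CPM in the MLN (log2 -1.42, SE 1.05). For both, spleen 3 was the highest library, and the sign of the difference turned without it. Ahr, a receptor for dietary and microbial ligands, was at 5.06, 2.56 and 5.61 CPM in the spleen and 13.3, 32.9 and 14.8 CPM in the MLN (ENSMUSG00000019256, chromosome 12, 35497974 to 35535038; log2 2.21, SE 0.62, adjusted p = 0.839 by edgeR), and was the only member non-overlapping with the MLN higher. Eomes, a factor of cytotoxic lymphocytes, was at 1.72, 3.08 and 1.05 CPM in the spleen and 0.221, 0.383 and 0 CPM in the MLN, the only member non-overlapping with the spleen higher.

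Follicular regulatory genes gave no common direction. Bcl6, the factor that directs T cells to follicles, was at 0.398, 25.1 and 6.5 CPM in the spleen and 1.69, 4.59 and 14.8 CPM in the MLN (log2 -0.60, SE 1.34). Its spread within an organ exceeded the difference between organs, and the sign turned without spleen 2 (log2 1.01). Cxcr5, the follicle-homing receptor, was at 45.4, 35 and 87 CPM in the spleen and 67.9, 33.1 and 39.5 CPM in the MLN. Pdcd1, which encodes the inhibitory receptor PD-1, was at 3.51, 47.1 and 37.2 CPM in the spleen and 8.26, 42.1 and 0.993 CPM in the MLN. Both genes overlapped between organs. Sh2d1a, the adaptor SAP that T cells need to help B cells, was at 166, 139 and 41.1 CPM in the spleen and 211, 195 and 173 CPM in the MLN (log2 0.74, SE 0.55), non-overlapping with the MLN higher along with Id3.

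Costimulatory and inhibitory receptors had a median log2 difference of 0.08 over 20 members, 12 positive and 8 negative. Tigit, an inhibitory receptor, was at 824, 878 and 480 CPM in the spleen and 921, 813 and 278 CPM in the MLN (log2 -0.12, SE 0.48) and overlapped. Cd28, the main costimulatory receptor, was at 290.3, 263 and 261 CPM in the spleen and 214, 223 and 142 CPM in the MLN (log2 -0.49, SE 0.33, 95% interval -1.24 to 0.26). Slamf1, a homotypic signalling receptor, was at 90.6, 88.7 and 100 CPM in the spleen and 74.9, 73.7 and 73.2 CPM in the MLN (log2 -0.33, SE 0.33). Cd28 and Slamf1 were the members of the list with non-overlapping libraries, both with the spleen higher and both by less than 1 log2 unit.

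Genes induced by T cell receptor signals, many of which cell handling also induces, had mostly negative differences, but a single library weighed heavily. Of 24 members, 22 had a negative log2 difference, and the median was -0.97. Of the 24, 2 (8.33%, against 4.56% of all tested genes) were non-overlapping with the spleen higher. The list took 0.174%, 0.255% and 0.716% of counts in the spleen and 0.166%, 0.174% and 0.181% in the MLN. Nr4a1, an orphan nuclear receptor that reports antigen receptor signals, was at 84.4, 59.3 and 577 CPM in the spleen and 34.8, 33.6 and 71.3 CPM in the MLN (log2 -2.37, SE 1.15). Fos, a subunit of the AP-1 transcription factor, was at 41.3, 78 and 507 CPM in the spleen and 55.3, 45 and 71.7 CPM in the MLN (log2 -1.86, SE 0.91). Spleen 3 was the highest of the 6 libraries for 16 of the 24 members, and without it 19 were negative with a median of -0.32. Egr1, an early zinc finger factor of the same response, was at 11.9, 13.5 and 20.7 CPM in the spleen and 4.99, 2.94 and 11.3 CPM in the MLN (log2 -1.26, SE 0.59). Tagap, a GTPase-activating protein of activated T cells, was at 39.5, 42.7 and 102 CPM in the spleen and 34.1, 34.6 and 33 CPM in the MLN. These were the non-overlapping members. Without libraries 3 of both organs, 12 of the 24 were non-overlapping with the spleen higher and 1 with the MLN higher, where 15.2% and 18.8% of all tested genes were.

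Genes of NF-kB signalling had a median log2 difference of -0.38 over 21 members, and of 0.07 without spleen 3. Nfkbia, the inhibitor that holds NF-kB in the cytoplasm, was at 596, 895 and 635 CPM in the spleen and 639.6, 583 and 556 CPM in the MLN (log2 -0.26, SE 0.34). Nfkb1, which encodes the p50 subunit, was at 112, 82.6 and 215 CPM in the spleen and 116, 79.8 and 136 CPM in the MLN. Both overlapped. Tnfaip3, which encodes the deubiquitinase A20 that ends NF-kB signals, was at 110.4, 177 and 172 CPM in the spleen and 83, 99.6 and 75.6 CPM in the MLN (log2 -0.83, SE 0.31, 95% interval -1.55 to -0.11), non-overlapping with the spleen higher. Tnfaip8, a regulator of cell death induced by TNF, was at 41.4, 70.3 and 41.9 CPM in the spleen and 71.5, 97.5 and 96.1 CPM in the MLN (log2 0.79, SE 0.37), non-overlapping with the MLN higher.

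The IL-2 and STAT5 list opens with Cish and Socs2, inhibitors of cytokine signals that STAT5 induces. Cish was at 20.2, 27.8 and 47.7 CPM in the spleen and 15.6, 18 and 32.3 CPM in the MLN (log2 -0.54, SE 0.67) and overlapped. Socs2 (ENSMUSG00000020027, chromosome 10, 95385362 to 95417180) was at 20.5, 13.1 and 11.3 CPM in the spleen and 58.4, 55 and 42.7 CPM in the MLN, a log2 difference of 1.79 (SE 0.42, 95% interval 0.83 to 2.76, adjusted p = 0.839 by edgeR). Its 3 MLN values were all more than 2 times the highest spleen value. The list had a median of -0.22 over 18 members (0.02 without spleen 3), and Il2ra and Socs2 were its members with non-overlapping libraries.

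Genes of the TGF-beta pathway had a median log2 difference of -0.74 over 16 members with a value, and 5 of 17 tested (29.4%) were non-overlapping with the spleen higher, against 4.56% of all tested genes. The fitted median over all 17 was -0.79, and -0.19 without spleen 3. Tgfb1, the ligand TGF-beta 1, was low, at 6.04, 6.08 and 1.93 CPM in the spleen and 1.08, 1.08 and 1.43 CPM in the MLN (log2 -1.97, SE 1.08). Itgav, an integrin chain, was at 83.2, 159.97 and 58.7 CPM in the spleen and 35.3, 32.6 and 44.5 CPM in the MLN (log2 -1.43, SE 0.47, 95% interval -2.49 to -0.36). Itgb8, its partner, was at 25.7, 21.6 and 11.9 CPM in the spleen and 9.41, 6.25 and 1.79 CPM in the MLN (log2 -1.76, SE 0.82). Together these chains release active TGF-beta from its latent complex. Tgfbr1, a receptor chain, was at 10.8, 9.53 and 7.89 CPM in the spleen and 12.5, 10.1 and 14.4 CPM in the MLN. Tgfbr2, the other receptor chain, was at 78.7, 75 and 202 CPM in the spleen and 70.7, 69.7 and 104 CPM in the MLN, and its sign turned without spleen 3 (log2 0.09). The receptors did not separate the organs. Smad3, the transcription factor that carries the signal, was at 19.6, 19.7 and 36.6 CPM in the spleen and 4.15, 4.34 and 2.08 CPM in the MLN (log2 -2.84, SE 0.79, 95% interval -4.65 to -1.04). Each spleen value of Smad3 was more than 4 times the highest MLN value. Tgif1, a repressor of Smad-dependent transcription, was at 61.9, 48.2 and 48.3 CPM in the spleen and 45.3, 22.5 and 24 CPM in the MLN (log2 -0.79, SE 0.42). Macrophages also express several of these genes, and macrophage markers were higher in the spleen libraries as described below; their part in these differences was not tested.

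The listed genes of cell division had mostly positive differences. Of 28 replication and mitosis genes, 24 had a positive log2 difference, and the median was 0.33. Of the 28, 2 (7.14%, against 4.52% of all tested genes) were non-overlapping with the MLN higher. Without spleen 3, 18 of the 28 were positive. Replication-dependent histone genes, which are outside the list, summed to 1223, 1029 and 134 CPM in the spleen. In the MLN they summed to 1065, 773 and 550 CPM, and the organs overlapped. Mki67, the proliferation antigen Ki-67, was at 57.5, 33 and 5.64 CPM in the spleen and 26.9, 46.6 and 38.6 CPM in the MLN (log2 0.22, SE 0.71). Top2a, the topoisomerase of mitotic chromosomes, was at 70.8, 40.7 and 10.5 CPM in the spleen and 60.5, 62.5 and 83.1 CPM in the MLN (log2 0.76, SE 0.64). Ccna2, cyclin A2, was at 43.7, 9.98 and 12.2 CPM in the spleen and 49.5, 50.4 and 11.7 CPM in the MLN. These genes overlapped, and spleen 3 or spleen 2 held the lowest value of each. Rrm1, the large subunit of ribonucleotide reductase, was at 41.7, 22.2 and 29.8 CPM in the spleen and 43.3, 70.1 and 52.5 CPM in the MLN (log2 0.83, SE 0.40). Stmn1, a regulator of microtubules in dividing cells, was at 184, 134 and 35.8 CPM in the spleen and 442, 277 and 222 CPM in the MLN (log2 1.41, SE 0.59). Both were non-overlapping. Thymocytes also divide, and their markers were higher in the MLN libraries as described below; the part of such cells was not tested.

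Interferon response genes had a median log2 difference of 0.23 over 26 members, 19 positive, but differed more between spleen libraries than between organs. The list took 0.866%, 0.263% and 0.407% of counts in the spleen and 0.691%, 0.691% and 0.569% in the MLN, so the spleen held both the highest and the lowest library. Ifit1, an RNA-binding antiviral protein, was at 190.4, 8.23 and 15.9 CPM in the spleen and 117, 167 and 38.5 CPM in the MLN (log2 0.59, SE 1.09). Isg15, a ubiquitin-like modifier, was at 10.3, 1.96 and 19.3 CPM in the spleen and 1.78, 3.19 and 2.04 CPM in the MLN (log2 -2.17, SE 1.10). Irf7, the transcription factor that amplifies the response, was at 28.4, 5.04 and 31.9 CPM in the spleen and 7.55, 15.2 and 18.3 CPM in the MLN. All 3 overlapped. Ifit2 (ENSMUSG00000045932, chromosome 19, 34550694 to 34576419), a relative of Ifit1, was at 4.95, 1.75 and 1.23 CPM in the spleen and 19.3, 20.1 and 58.8 CPM in the MLN (log2 3.63, SE 0.88, 95% interval 1.61 to 5.65, adjusted p = 0.839 by edgeR). Irgm1, a GTPase of interferon-induced defence, was at 28.7, 12.7 and 25.3 CPM in the spleen and 52.9, 56.7 and 38.8 CPM in the MLN (log2 1.15, SE 0.53). Ifit2 and Irgm1 were the non-overlapping members, both with the MLN higher, and 13 of the 26 members had their highest value in spleen 1.

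Metabolic lists showed no common direction. In glycolysis and hypoxia the median was -0.38 over 20 members, and 0.08 with 11 positive without spleen 3. Hk2, which encodes the first enzyme of glycolysis, was at 14.7, 25.8 and 10.6 CPM in the spleen and 22.7, 16.1 and 26.8 CPM in the MLN. Pgk1, a later enzyme, was at 250.3, 149 and 264 CPM in the spleen and 406, 368 and 193 CPM in the MLN. Ldha, which makes lactate, was at 826, 401 and 767 CPM in the spleen and 1285, 1044 and 589.96 CPM in the MLN (log2 0.55, SE 0.55). All 3 overlapped. Aldoa, the aldolase, was at 110.3, 131 and 157 CPM in the spleen and 93.7, 81.6 and 106 CPM in the MLN, non-overlapping with the spleen higher. Gapdh, a further enzyme of the pathway, was at 10.5, 7.69 and 6.62 CPM in the spleen and 3.91, 2.24 and 3.27 CPM in the MLN, also non-overlapping. Gapdh has many near-identical copies in the genome, and its count is uncertain. In fatty acid and cholesterol metabolism the median was 0.05. Cpt1a, which admits fatty acids to mitochondria, was at 37.9, 58.4 and 141 CPM in the spleen and 46.1, 66 and 133 CPM in the MLN, with an estimate near 0 (log2 0.05, SE 0.63).

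Survival genes and GIMAP GTPases, which keep resting lymphocytes alive, were spread over both organs. Gimap1 was at 10.8, 12.8 and 31.6 CPM in the spleen and 14.8, 24.4 and 22.5 CPM in the MLN. Gimap3 was at 149.5, 173 and 601 CPM in the spleen and 231, 241 and 206 CPM in the MLN, and its sign turned without spleen 3 (log2 0.49). Gimap4 was at 286, 287 and 396 CPM in the spleen and 403, 431 and 256 CPM in the MLN (log2 0.17, SE 0.35). None of the 8 GIMAP genes was non-overlapping. Bcl2, which blocks mitochondrial cell death, was at 443, 628 and 955 CPM in the spleen and 609, 563 and 634 CPM in the MLN (log2 -0.17, SE 0.33, 95% interval -0.93 to 0.59). Mcl1, a relative with the same role, was at 22.8, 14.7 and 37.1 CPM in the spleen and 32.1, 36.4 and 43.9 CPM in the MLN. Both overlapped. Bcl2l11, which encodes the death inducer Bim that Bcl2 and Mcl1 restrain, was at 21.5, 36.6 and 37 CPM in the spleen and 12, 19.2 and 14.3 CPM in the MLN (log2 -1.06, SE 0.40, 95% interval -1.98 to -0.14), and was the only non-overlapping member of the 15 survival genes.

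Of 21 genes of the unfolded protein and heat shock response, 6 (28.6%, against 4.56% of all tested genes) were non-overlapping with the spleen higher, and 2 with the MLN higher. The median of the list was -0.52 (0.0019 without spleen 3). The 6 serve the secretory pathway. Hspa5, the main chaperone of the endoplasmic reticulum, was at 94.7, 64.4 and 379 CPM in the spleen and 99.2, 95.7 and 66 CPM in the MLN (log2 -1.04, SE 0.71). Hsp90b1, another chaperone of that compartment, was at 624, 254 and 1367 CPM in the spleen and 369, 296 and 265 CPM in the MLN (log2 -1.27, SE 0.54). Hspa8, the constitutive cytosolic chaperone, was at 471, 352 and 889 CPM in the spleen and 563, 609 and 538 CPM in the MLN. All 3 overlapped, and the sign of Hspa5 and Hspa8 was positive without spleen 3 (log2 0.13 and 0.47). Pdia4, a disulfide isomerase of the secretory pathway, was at 96.5, 184 and 1063 CPM in the spleen and 48.5, 35 and 17.7 CPM in the MLN (log2 -3.73, SE 1.15, 95% interval -6.35 to -1.11). Herpud1, which serves degradation of misfolded proteins, was at 52.5, 82.9 and 283 CPM in the spleen and 25.4, 34.4 and 28.4 CPM in the MLN (log2 -2.25, SE 0.71, 95% interval -3.87 to -0.63). Xbp1, a transcription factor of secretory cells, was at 86.6, 85.7 and 53 CPM in the spleen and 52.7, 36.8 and 7.94 CPM in the MLN (log2 -1.21, SE 0.74). Calr, Sdf2l1 and Manf, which also serve protein folding in the endoplasmic reticulum, were the other 3 non-overlapping members.

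These chaperones are abundant in plasma cells. The plasma cell and immunoglobulin list took 0.776% to 1.83% of counts in the spleen and 0.0879% to 0.38% in the MLN. Of its 14 tested members, 5 (35.7%, against 4.56% of all tested genes) were non-overlapping with the spleen higher. With the MLN higher, 1 (7.14%, against 4.52%) was non-overlapping. The part of this list in the chaperone values was not tested. The members with the MLN higher were the inducible Hsp70 genes. Hspa1a was at 0, 0.00945 and 0 CPM in the spleen and 0.836, 0.72 and 0.0155 CPM in the MLN. Hspa1b was at no count in the spleen and 2.09, 1.09 and 0.599 CPM in the MLN. Both were nearly absent from the spleen libraries and low in the MLN, and as near-identical copies they share reads.

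The 15 genes nearest to a call with the MLN higher were taken by unadjusted p among 394 non-overlapping named genes with at least 10 CPM in the MLN. Their edgeR adjusted p ran from 0.110 to 0.839, so none is called. Of them, 5 had no count in the spleen, which allows up to 3 counts per library there, a limit that covers counting error only. A library could also lack a gene that both others of its organ held at 10 CPM or more. There were 73, 56 and 33 such genes in the spleen libraries and 15, 18 and 54 in the MLN libraries. Gpsm2 (ENSMUSG00000027883, chromosome 3, 108678638 to 108722309), which orients the mitotic spindle, was at 20.6, 26.4 and 8.05 CPM in the MLN (at least 1256-fold higher, adjusted p = 0.11 by edgeR). Basp1 (ENSMUSG00000045763, chromosome 15, 25363277 to 25413764), a membrane-bound signalling protein, was at 28.3, 4.26 and 49.6 CPM (at least 1876-fold higher, adjusted p = 0.382 by edgeR). Its MLN libraries differed among themselves by more than 10 times.

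Gcsam (ENSMUSG00000022659, chromosome 16, 45610380 to 45622867), a signalling adaptor named for germinal centre B cells, was at 17.7, 15.4 and 4.3 CPM in the MLN (at least 854-fold higher). Rassf6 (ENSMUSG00000029370, chromosome 5, 90603076 to 90640657), a Ras-association protein, was at 7.21, 13.8 and 31.1 CPM (at least 1191-fold higher). Med12l, a relative of a Mediator subunit, was at 2.14, 1.71 and 46.4 CPM (at least 1147-fold higher), nearly all of it in MLN 3. Each of these 3 genes had an MLN library under 10 CPM, so the size of the difference rests on few libraries.

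Beside Socs2, Id3, Ifit2 and Ahr, already given, 6 further genes had counts in all 6 libraries. Ighg2b (ENSMUSG00000076613, chromosome 12, 113302965 to 113307933), the constant region of the IgG2b heavy chain, was at 3.25, 2.53 and 8.06 CPM in the spleen and 42.9, 151 and 108 CPM in the MLN (log2 4.45, SE 0.79, 95% interval 2.64 to 6.25, adjusted p = 0.684 by edgeR). It is a product of antibody-forming cells, and its reads may be shared with the closely related Ighg2c. Far2 (ENSMUSG00000030303, chromosome 6, 148047259 to 148182758), a fatty acyl-CoA reductase, was at 6.99, 6.77 and 15.3 CPM in the spleen and 40.8, 41.8 and 57.2 CPM in the MLN (log2 2.27, SE 0.50). Nck1 (ENSMUSG00000032475, chromosome 9, 100492293 to 100546134), an adaptor that links the T cell receptor to actin, was at 67.5, 81.7 and 41.7 CPM in the spleen and 155, 118 and 202 CPM in the MLN (log2 1.32, SE 0.38). In all 3 of these genes the organs were apart by more than 1 log2 unit. Psmd5, a chaperone for assembly of the proteasome, was at 27.2, 19 and 34.3 CPM in the spleen and 81.9, 77.5 and 52.8 CPM in the MLN (log2 1.40, SE 0.40). Bub1b, a kinase of the spindle checkpoint, was at 1.3, 1.09 and 3.7 CPM in the spleen and 44.4, 8.62 and 18 CPM in the MLN (log2 3.54, SE 0.95). Zfp125, annotated as a transcribed pseudogene, was at 9.75, 7.48 and 7.42 CPM in the spleen and 54.7, 62.4 and 16.5 CPM in the MLN (log2 2.44, SE 0.68).

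The 15 genes nearest to a call with the spleen higher were taken the same way among 416. Their edgeR adjusted p ran from 0.110 to 0.839. Ptpro (ENSMUSG00000030223, chromosome 6, 137252319 to 137463233), a receptor tyrosine phosphatase, was at 15, 53.5 and 63.4 CPM in the spleen with no count in the MLN (at least 3339-fold lower in the MLN, adjusted p = 0.11 by edgeR). Cadm1 (ENSMUSG00000032076, chromosome 9, 47530173 to 47857637), an adhesion molecule of dendritic and other cells, was at 32, 43.2 and 117 CPM with no MLN count (at least 4876-fold lower, adjusted p = 0.237 by edgeR). Ptpro and Cadm1, with Adgre4 and Itgad, were the only genes at 10 CPM or more in all 3 spleen libraries and absent from all 3 MLN libraries, and 0 genes showed the reverse. At any level the balance went the other way. Then 48 genes had counts in all 3 spleen and no MLN library, and 82 in all 3 MLN and no spleen library. Adgre4, an adhesion receptor of macrophages and monocytes, was at 74.1, 12.3 and 115 CPM. Itgad, an integrin chain of splenic red pulp macrophages, was at 11.2, 19.1 and 61.4 CPM. Adgre4 and Itgad were chosen after their values were seen.

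A further 7 genes encode membrane proteins. Siglece (ENSMUSG00000030474, chromosome 7, 43651070 to 43660161), an inhibitory receptor for sialic acid on myeloid cells, was at 2.01, 14 and 26.3 CPM with no MLN count (at least 1072-fold lower). Cd300e (ENSMUSG00000048498, chromosome 11, 115051917 to 115062177), an activating receptor of monocytes, was at 21.7, 8.14 and 32.5 CPM with no MLN count (at least 1577-fold lower). In both, spleen libraries varied several-fold. Cd300c2, of the same family as Cd300e, was at 13.2, 57.1 and 41.5 CPM in the spleen and 3.04, 2.02 and 3.77 CPM in the MLN (log2 -3.66, SE 0.63, adjusted p = 0.427 by edgeR). Clec4n, which encodes the fungal receptor dectin-2, was at 58.8, 87.3 and 120.5 CPM in the spleen and 8.78, 11.4 and 9.07 CPM in the MLN (log2 -3.19, SE 0.66). Sirpb1a, a signal-regulatory protein of myeloid cells, was at 165, 248 and 136 CPM in the spleen and 7.64, 27.3 and 30.3 CPM in the MLN (log2 -3.07, SE 0.65). Sirpb1b was at 83.4, 96.6 and 109.7 CPM in the spleen and 12, 24.7 and 27.2 CPM in the MLN (log2 -2.18, SE 0.54); it is closely related to Sirpb1a, and reads may be shared between them. Cd68, a lysosomal glycoprotein of macrophages, was at 13.6, 25 and 20 CPM in the spleen and 3.99, 4.89 and 2.81 CPM in the MLN (log2 -2.33, SE 0.53, adjusted p = 0.79 by edgeR). In each of these genes the lowest spleen value exceeded every MLN value.

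The remaining genes of this group were of other kinds. Ighm (ENSMUSG00000076617, chromosome 12, 113418558 to 113422730), the constant region of the IgM heavy chain, was at 2636, 3852 and 3330.02 CPM in the spleen and 474, 516 and 669.95 CPM in the MLN (log2 -2.57, SE 0.44, 95% interval -3.56 to -1.57, adjusted p = 0.427 by edgeR). Its 3 values within each organ differed by less than 1.5 times. Gphn (ENSMUSG00000047454, chromosome 12, 78226379 to 78684772), the scaffold gephyrin, was at 381, 818 and 915 CPM in the spleen and 113, 124 and 250.1 CPM in the MLN (log2 -2.12, SE 0.50). Dennd4a, an activator of Rab GTPases, was at 116, 183 and 83 CPM in the spleen and 31.5, 41.3 and 16.7 CPM in the MLN (log2 -2.09, SE 0.44). Frrs1, a ferric reductase, was at 21.7, 12.7 and 30.8 CPM in the spleen and 2, 4.22 and 3.46 CPM in the MLN (log2 -2.75, SE 0.63). For each of the 3 the ratio of the organ means exceeded the ratio of highest to lowest library within either organ. Sh3pxd2a, a scaffold of invasive protrusions, was at 21.6, 42.1 and 30 CPM in the spleen and 4.52, 5.39 and 2.03 CPM in the MLN (log2 -2.97, SE 0.70). Fem1b, a substrate receptor of a ubiquitin ligase, was at 5.1, 13.5 and 16 CPM in the spleen and 2, 1.68 and 1.07 CPM in the MLN (log2 -2.86, SE 0.72). DESeq2 called all 30 of these genes, which were chosen for libraries that do not overlap.

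**Figure D4:**
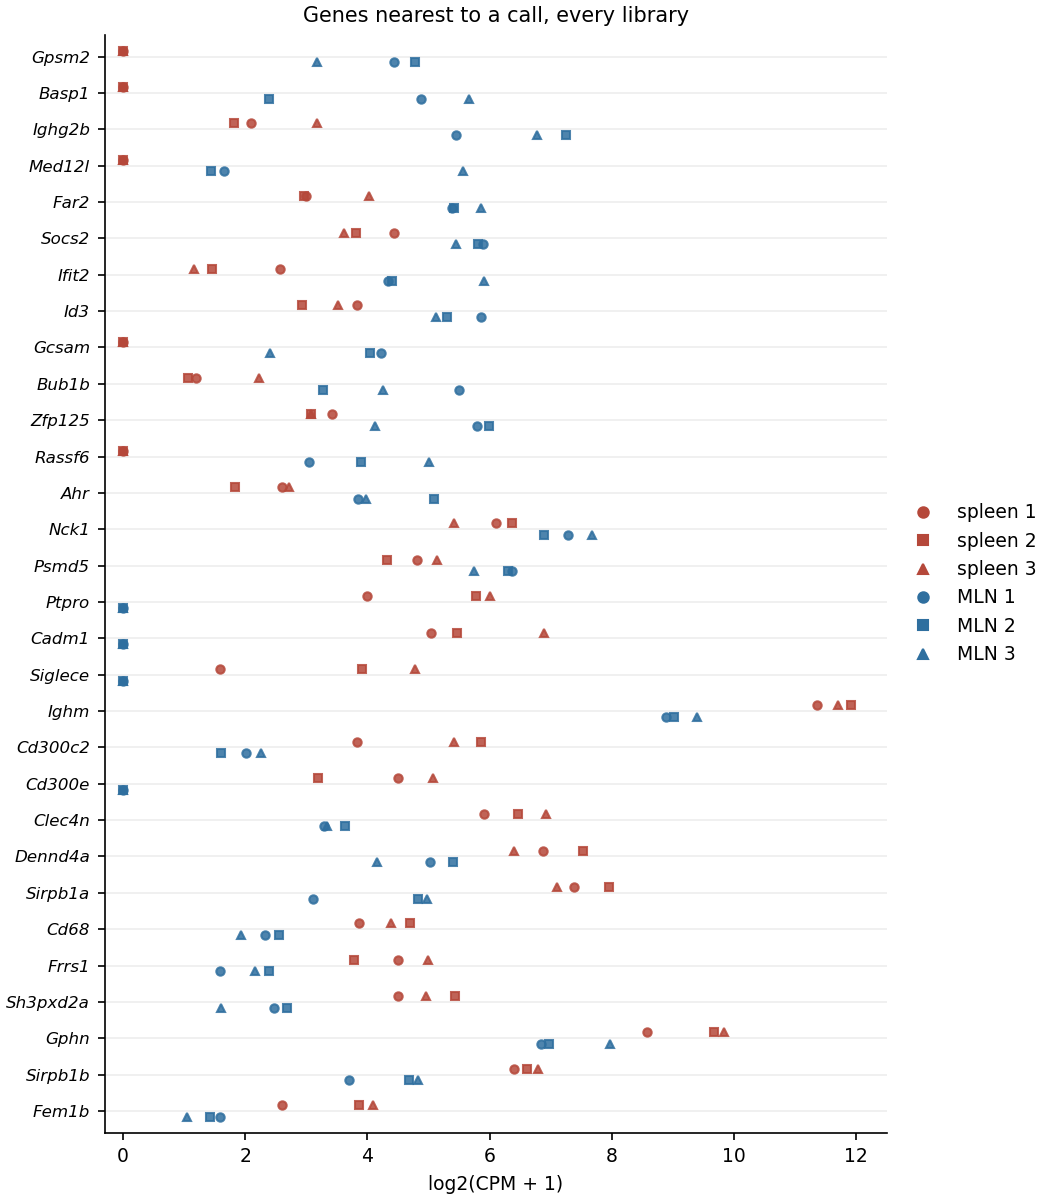
Level as log2(CPM + 1) (horizontal axis) of the 15 genes nearest to a call with the MLN higher (Gpsm2 to Psmd5) and the 15 with the spleen higher (Ptpro to Fem1b) in the 3 spleen (red) and 3 MLN (blue) libraries, with the symbol's shape giving the library number. Points at 0 are libraries with no count; the organs do not overlap for any of the 30, which was a condition of the choice.

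Marker genes of other cells were measured in every library, and several lists separated the organs. In such bulk samples fewer cells of a type and less RNA per cell cannot be told apart. Of the 15 marker lists, the share of counts was non-overlapping with the spleen higher for 7 and with the MLN higher for 1. Red pulp macrophages take up aged red cells and recycle their iron. All 14 members of their list had a negative log2 difference, the median was -3.37, 8 of 14 (57.1%, against 4.56% of all tested genes) were non-overlapping, and the share was 0.0392% to 0.122% in the spleen and 0.00185% to 0.0141% in the MLN. A member nearly absent from the MLN could pass the filter only through spleen or heart libraries. Where spleen libraries carried it, its direction and lack of overlap were partly fixed in advance. Spic, the transcription factor that makes these macrophages, was at 21.6, 26.4 and 30.7 CPM in the spleen and 0, 11.7 and 0 CPM in the MLN. Vcam1, an adhesion molecule they carry, was at 19, 7.43 and 41.7 CPM in the spleen and 0.024, 6.46 and 0.0464 CPM in the MLN. Hmox1, which degrades haem, was at 32.6, 16.8 and 149 CPM in the spleen and 0, 9.89 and 0.0618 CPM in the MLN. MLN 1 had no count of Spic or Hmox1, and MLN 2 was the highest MLN library of all 3 genes.

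Complement C1q is also made by macrophages. C1qb was at 179, 224 and 409 CPM in the spleen and 7.03, 66.8 and 16.6 CPM in the MLN (log2 -3.17, SE 0.81, 95% interval -5.02 to -1.31), and C1qa and C1qc were likewise non-overlapping with the spleen higher. Spleen 3 had the highest value for 12 of the 14 members, and without it 10 were negative with a median of -2.61. Without libraries 3, 9 of the 14 members were non-overlapping with the spleen higher and 1 with the MLN higher, against 15.2% and 18.8% of all tested genes.

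The wider monocyte and macrophage list had a median of -1.22. Of its 20 members, 7 (35%, against 4.56% of all tested genes) were non-overlapping with the spleen higher and 0 with the MLN higher. Lyz2, lysozyme of phagocytes, was at 529, 969 and 1363 CPM in the spleen and 194, 620.1 and 436 CPM in the MLN (log2 -1.20, SE 0.56). Csf1r, the receptor on which macrophages depend, was at 12.7, 38.9 and 114 CPM in the spleen and 10.7, 2.77 and 0.17 CPM in the MLN (log2 -3.60, SE 1.35). Cd14, a coreceptor for lipopolysaccharide, was at 3.92, 2.5 and 8.04 CPM in the spleen and 0.245, 0.63 and 0.0348 CPM in the MLN (log2 -3.99, SE 0.95). Csf1r and Cd14 did not overlap and Lyz2 did. Tyrobp, a signalling adaptor of myeloid receptors, was at 301, 546 and 297 CPM in the spleen and 121, 115 and 92.7 CPM in the MLN (log2 -1.80, SE 0.53, 95% interval -3.01 to -0.59). Fcer1g, a second such adaptor, was at 478, 602 and 346 CPM in the spleen and 154, 158 and 155 CPM in the MLN (log2 -1.61, SE 0.53, 95% interval -2.83 to -0.39). The share of this list overlapped, at 0.808% to 0.999% and 0.758% to 0.808%. By count most of it came from the protease Ctss, at 6329, 4882 and 4717 CPM in the spleen and 6869, 6425 and 5149.5 CPM in the MLN. All members summed to 8663, 7986 and 8070 CPM in the spleen and 8164, 8027 and 6500 CPM in the MLN, which overlapped. Without Ctss they summed to 2333, 3104 and 3353 CPM in the spleen and 1295, 1602 and 1351 CPM in the MLN, which did not overlap. Ctss was left out after its values were seen. The part of these cells in the differences of Ptpro, Cadm1, Smad3, Itgav and the other genes higher in the spleen was not tested.

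Neutrophil and red cell genes were low, and each list took a larger share of counts in every spleen library than in any MLN library. Of 10 tested members each, 4 neutrophil and 3 erythroid genes were non-overlapping with the spleen higher, against 4.56% of all tested genes. Those nearly absent from the MLN could pass the filter only through spleen or heart libraries. Where spleen libraries carried them, direction and lack of overlap were partly fixed in advance. The neutrophil list took 0.00386% to 0.00578% of counts in the spleen and 0.00014% to 0.000392% in the MLN. S100a8, an alarmin of neutrophil granules, was at 6.72, 2.38 and 8.79 CPM in the spleen and 0, 0 and 0.526 CPM in the MLN. S100a9, its partner, was at 5.67, 2.14 and 8.17 CPM in the spleen and 1.55, 0 and 0 CPM in the MLN. Both were non-overlapping. Ly6g had no count in any of the 6 libraries, so the defining surface marker of neutrophils was at 0. The erythroid list took 0.011% to 0.0185% and 0.00207% to 0.00573%. Hbb-bs, a haemoglobin beta chain, was at 61.2, 21.6 and 10.8 CPM in the spleen and 0.471, 0.072 and 2.36 CPM in the MLN. Hba-a1, an alpha chain, was at 45.6, 29.8 and 5.03 CPM in the spleen and 0.298, 5.14 and 2.44 CPM in the MLN. Alas2, the first enzyme of haem synthesis in red cells, was near 0, at 0, 0 and 0.722 CPM in the spleen and 0.0912, 0.333 and 0.0773 CPM in the MLN. Haemoglobin copies are near-identical and share reads.

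B cell genes were abundant, and the third library of the MLN went against the other 2. The pan-B cell list took 1.15%, 1.72% and 1.31% of counts in the spleen and 0.332%, 0.279% and 1.89% in the MLN. Cd79a, a signalling chain of the B cell receptor, was at 539, 710.2 and 505 CPM in the spleen and 189.8, 110.2 and 974 CPM in the MLN. Ms4a1, which encodes CD20, was at 287, 134 and 122 CPM in the spleen and 165, 68.9 and 236 CPM in the MLN. MLN 3 had the highest value for 12 of the 20 members. Without libraries 3, 13 members were non-overlapping with the spleen higher and 0 with the MLN higher, against 15.2% and 18.8% of all tested genes. Ighm did not follow this pattern, since MLN 3 had less Ighm than any spleen library. Class II histocompatibility genes of antigen-presenting cells resembled the list: H2-Ab1 was at 788, 1969.97 and 1144 CPM in the spleen and 458, 367 and 1205 CPM in the MLN, again with MLN 3 among the spleen values.

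The list of marginal zone B cells, which lie in the spleen's blood filter, took 0.267% to 0.449% in the spleen and 0.146% to 0.257% in the MLN. Cr2, the complement receptor CD21, was at 27.9, 32.4 and 22.9 CPM in the spleen and 5.69, 4.62 and 22.6 CPM in the MLN. Fcrl5, a receptor of that subset, was at 32.6, 34.3 and 56.7 CPM in the spleen and 52.4, 0.387 and 11.1 CPM in the MLN. S1pr3, a sphingosine phosphate receptor of marginal zone B cells, had counts in only 1 library of each organ, at 0, 0 and 2.18 CPM in the spleen and 2.31, 0 and 0 CPM in the MLN. Mzb1, a chaperone of antibody secretion, was at 477, 564 and 689.9 CPM in the spleen and 219.5, 39.9 and 108 CPM in the MLN (log2 -2.24, SE 1.74), non-overlapping with the spleen higher.

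Antibody genes differed by organ and by single library. Jchain, the joining chain of secreted IgM and IgA, was at 2070.4, 7854 and 1008 CPM in the spleen and 635, 137 and 53 CPM in the MLN. Igkc, the kappa light chain constant region, was at 4976, 9429 and 3208 CPM in the spleen and 2215, 359 and 736 CPM in the MLN. Both were non-overlapping with the spleen higher, with wide intervals (log2 -3.73, SE 2.34 for Jchain and log2 -2.41, SE 1.24 for Igkc). Sdc1, the plasma cell marker CD138, was low, at 1.39, 1.79 and 3.95 CPM in the spleen and 0.667, 0 and 1.06 CPM in the MLN. Ighg1, the IgG1 heavy chain, was at 0.63, 0.562 and 6530.1 CPM in the spleen and 688, 12.2 and 6.46 CPM in the MLN, so nearly all of it lay in spleen 3 and MLN 1. Igha, the IgA heavy chain, was at 25.4, 1.81 and 1339 CPM in the spleen and 0, 0.423 and 22.3 CPM in the MLN. Kappa variable segments summed to 4895, 8825 and 2305 CPM in the spleen and 1065, 268 and 549 CPM in the MLN. In spleen 3 a single segment, Igkv4-59, held 67.8% of that sum, and in MLN 1 Igkv19-93 held 72%. In MLN 3 the leading kappa segment held 9.56%. Segments are closely related, and assignment of reads among them is uncertain.

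Thymocyte genes were the only marker list with a non-overlapping share higher in the MLN, at 0.00956% to 0.0538% against 0.00434% to 0.00786% in the spleen. All 7 tested members had a positive log2 difference (6 with DESeq2's size factors), and 4 (57.1%, against 4.52% of all tested genes) were non-overlapping. Members nearly absent from the spleen could pass the filter only through libraries of other organs. Their direction and lack of overlap were thus partly fixed in advance. Rag1, a subunit of the recombinase that assembles antigen receptor genes, was at no count in the spleen and 3.84, 1.77 and 22.7 CPM in the MLN (at least 645-fold higher). Rag2, its partner, was at no count in the spleen and 7.15, 0 and 5.1 CPM in the MLN. With counts in so few libraries it did not pass the filter and was not tested. Dntt, the polymerase that adds bases at the joints of receptor genes, was at 0, 0 and 0.819 CPM in the spleen and 28.5, 19.1 and 293 CPM in the MLN (log2 8.69, SE 3.09). All 3 were nearly or wholly absent from the spleen. Ptcra, the invariant chain of the pre-T cell receptor, was at 0.289, 0 and 0 CPM in the spleen and 11.3, 5.2 and 17.8 CPM in the MLN (log2 6.89, SE 2.85). Arpp21, a further gene of immature thymocytes, was at 2.26, 0.0756 and 0 CPM in the spleen and 7.15, 7.52 and 14.2 CPM in the MLN. MLN 3 was the highest library for 5 of the 7. Cd8b1, the CD8 beta chain, which most thymocytes also carry, was at 35.2, 164 and 41.2 CPM in the spleen and 196, 108 and 529 CPM in the MLN, with MLN 3 again the highest. The part of such cells in other genes higher in the MLN was not tested.

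Lists of other lymphocytes overlapped between the organs. The pan-T cell list took 0.828% to 1.17% in the spleen and 0.977% to 1.09% in the MLN. Cd4 was at 16.3, 39.4 and 233 CPM in the spleen and 19.9, 40.2 and 53.9 CPM in the MLN, with spleen 3 far above the other 5. Cd3e, a signalling chain of the T cell receptor, was at 97.8, 155 and 127 CPM in the spleen and 56.5, 53.8 and 79 CPM in the MLN (95% interval -1.84 to -0.17 of the log2 difference), non-overlapping with the spleen higher. Cd3d, a sister chain, was at 668, 765 and 288 CPM in the spleen and 846, 904 and 627 CPM in the MLN (log2 0.47, SE 0.48) and had the opposite sign to Cd3e. Trbc1, a constant region of the receptor's beta chain, was at 408, 601 and 299.7 CPM in the spleen and 839.8, 745 and 608 CPM in the MLN (log2 0.74, SE 0.34). Trbc1 was non-overlapping with the MLN higher.

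Cytotoxic lymphocyte genes varied by library. Cd8a was at 0.0257, 22 and 8.1 CPM in the spleen and 17.8, 4.89 and 34.1 CPM in the MLN. Ncr1, the receptor NKp46 of natural killer cells, was at 21, 45.4 and 0 CPM in the spleen and 0, 4.68 and 0 CPM in the MLN, absent from 3 of the 6 libraries. Gzmk, a granzyme of memory lymphocytes, was at 1356, 159.7 and 0 CPM in the spleen and 32, 0 and 0 CPM in the MLN. A single spleen library held most of the Gzmk, and the organs overlapped. Of 12 innate lymphoid, mast cell and basophil genes with counts here, 3 had their highest value in MLN 1, 3 in spleen 2 and 3 in spleen 3. Cpa3, a mast cell protease, was at 2.45, 1.08 and 0.505 CPM in the spleen and 42.5, 15.1 and 0.754 CPM in the MLN. Fcer1a, a chain of the IgE receptor, was at 0.0771, 0 and 0 CPM in the spleen and 5.72, 0 and 0 CPM in the MLN. Mcpt8, a basophil protease, was at no count in the spleen and 7.01, 0 and 0 CPM in the MLN. The organs overlapped for all 3.

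The dendritic cell list overlapped between the organs, at 0.268% to 0.541% of counts in the spleen and 0.144% to 0.559% in the MLN. The list of lymph node and spleen stroma also overlapped, at 0.00885% to 0.0272% and 0.0102% to 0.0157%. Itgax, which encodes CD11c, was at 0, 0.0803 and 9.41 CPM in the spleen and no count in the MLN. Flt3, the growth factor receptor of dendritic cells and their precursors, was at 7.97, 6.44 and 0 CPM in the spleen and 17.5, 9.82 and 18 CPM in the MLN (log2 1.65, SE 1.83), non-overlapping with the MLN higher. Zbtb46, a factor of conventional dendritic cells, was at 0, 0 and 9.2 CPM in the spleen and 1.02, 0.365 and 6.47 CPM in the MLN. Ccl21a, Ccl19 and Pdpn, made by fibroblasts and vessels of lymphoid organs, had counts in 1 library each, at most 0.860 CPM. Cxcl13, the B cell attractant of follicle stroma that some T cells also make, was at no count in the spleen and 8.72, 0.765 and 2.2 CPM in the MLN. Dcn, the proteoglycan decorin of fibroblasts, was at 0.141, 0.17 and 0.238 CPM in the spleen and 3.65, 1.37 and 4.67 CPM in the MLN (log2 4.13, SE 0.86, adjusted p = 0.684 by edgeR), non-overlapping with the MLN higher at a level below 5 CPM.

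Cardiac and lung lists had shares of at most 0.0100% in any of the 6 libraries. Myh6, Actc1, Sftpc, Sftpa1 and Sftpb, which define heart muscle and alveolar epithelium, had no count in any of them, and Tnnt2 was at 0, 1.06 and 0.56 CPM in the spleen and 0, 0 and 0.0155 CPM in the MLN. Both shares were nonetheless non-overlapping with the spleen higher. In the cardiac list the non-overlapping member was Ttn, at 13.9, 52.6 and 12.9 CPM in the spleen and 7.76, 8.52 and 5.63 CPM in the MLN. In the lung list it was Epcam, at 62.2, 98.8 and 55.8 CPM in the spleen and 3.27, 15.9 and 46.2 CPM in the MLN. Epcam is an adhesion molecule of epithelium that some lymphocytes and dendritic cells also carry.

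**Figure D5:**
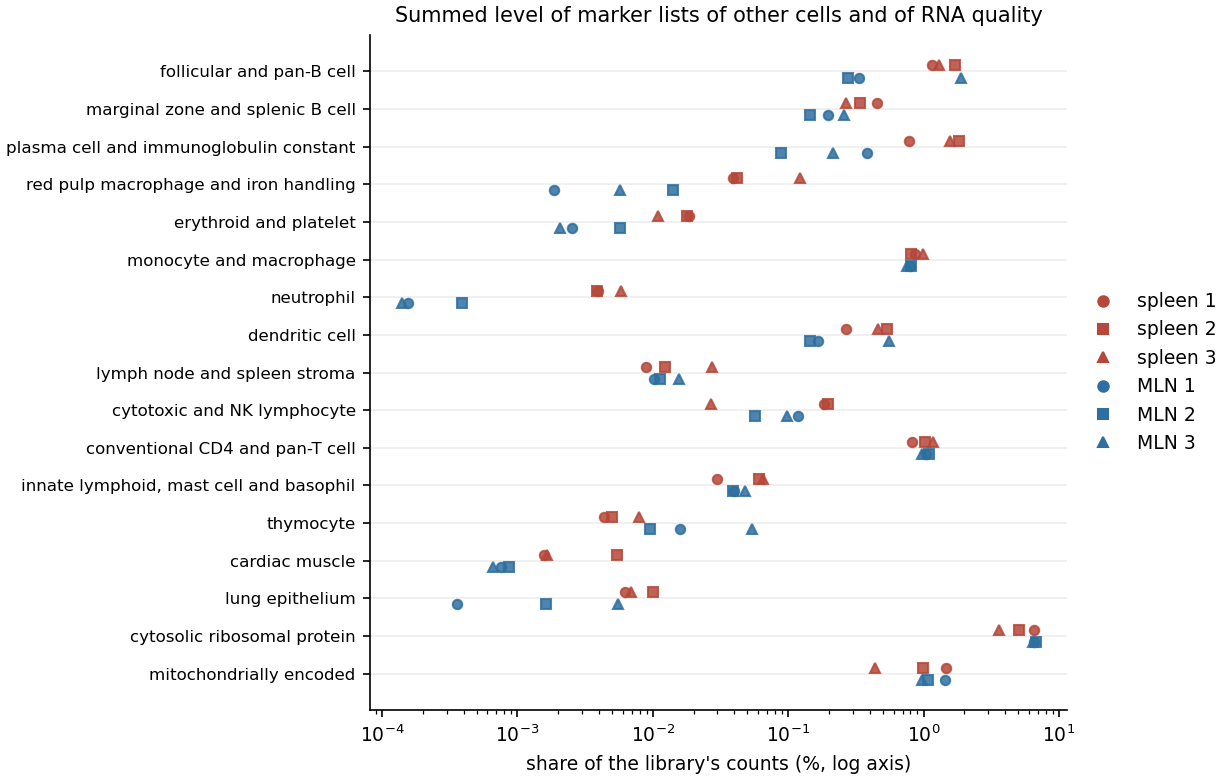
Share of each library's counts (horizontal axis, percent, log scale) taken by each marker list of other cells and by the 2 RNA quality lists, in the 3 spleen (red) and 3 MLN (blue) libraries, with the symbol's shape giving the library number. Spleen points lie to the right of MLN points for red pulp macrophage, erythroid, neutrophil and plasma cell lists, the reverse holds for thymocyte genes, and MLN 3 lies with the spleen libraries for B cell genes.

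Among T cell receptor beta segments, Trbv3 took a larger share in all 3 spleen libraries. Of 35 Trbv segments, 24 had a count and 21 had counts in all 6 libraries. Trbv3 took 17%, 18.7% and 16.4% of all Trbv counts in the spleen and 8.25%, 7.80% and 6.87% in the MLN. It was the leading segment of all 3 spleen libraries and the only one whose share was non-overlapping with the spleen higher. In the other direction 3 of the 24 segments with a count were non-overlapping. Among these 3, Trbv16 took 3.69%, 2.47% and 4.67% in the spleen and 5.07%, 9.46% and 11% in the MLN. By CPM, 4.52% of all tested genes were non-overlapping with the MLN higher and 4.56% with the spleen higher. Those percentages are not for shares within a family, and whether the counts of segments exceed a background was not tested. Shares within a library do not depend on its scaling. The segments named here were chosen after their values were seen, and shares in a library of few cells can rest on few clones, which was not tested.

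Ribosomal protein genes, a sign of RNA content and quality, all had a positive log2 difference (75 of 75, and 74 with DESeq2's size factors), with a median of 0.39. Of the 75, 5 (6.67%, against 4.52% of all tested genes) were non-overlapping with the MLN higher. The share of the 75 genes was 6.56%, 5.1% and 3.61% in the spleen and 6.59%, 6.72% and 6.48% in the MLN, with the lowest value in spleen 3. Without that library 56 of 75 were positive and the median was 0.098. Rplp0 was at 2795, 2349 and 1949 CPM in the spleen and 3411, 3402 and 2553 CPM in the MLN (log2 0.40, SE 0.30). Rplp1 was at 1661, 1415 and 578 CPM in the spleen and 1889, 1703 and 1284 CPM in the MLN. Rplp2 was at 574, 471 and 231 CPM in the spleen and 593, 476 and 456 CPM in the MLN. These 3 overlapped. Mitochondrially encoded genes took 1.46%, 0.998% and 0.438% and 1.45%, 1.08% and 0.971%. Of these, mt-Nd1 was at 1024, 837 and 246 CPM in the spleen and 965, 647 and 528 CPM in the MLN. The level of mt-Nd2 was 158, 94.6 and 57.7 CPM in the spleen and 123, 86 and 165 CPM in the MLN. That of mt-Nd3 was 17.8, 9.34 and 3.6 CPM in the spleen and 15.2, 12.4 and 9.55 CPM in the MLN. Spleen 3 was again the lowest library for each, as it was for B2m, while it was the highest for Foxp3, Nr4a1 and Fos.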

How the data were processed

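RNA of sorted Tregs was sequenced in 9 libraries, and the 3 from the MLN were compared with the 3 from the spleen. The values deposited by the authors are raw counts of reads, 1 column a library, neither normalized nor pooled. Per the submitters' processing notes, the tools were CASAVA 1.8.2, HISAT2 and HTSeq 0.6.0, on mouse build mm10. Their settings, strand use and gene models were not given in the sources used here. Counts of overlapping and antisense genes, paralogs and immunoglobulin segments are therefore uncertain. Coordinates are from GENCODE vM21, matched by gene identifier.

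In R 4.3.3, edgeR 4.0.16 kept 16609 of 49510 genes (filterByExpr at its defaults), scaled libraries by trimmed mean of M-values and fitted 1 quasi-likelihood model, organ as its only term, to all 9 libraries. The contrast of MLN minus spleen was tested on both sides with Benjamini-Hochberg adjustment, and a gene was called below 0.05. SEs are from the F statistic, and none is given where an organ had no count. Folds against an organ with no count use a floor of 3 counts per library; such floors cover counting error only, since PCR copies are not independent molecules. DESeq2 1.42.0, limma 3.58.1, other scalings and filters, a replicate block and leaving out libraries were alternatives. The code was checked on simulated counts. Each pair of libraries differed by more than sampling noise and stayed separate. In all, 0 columns were left unused.

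The comparison, the gene lists and the rule for named genes were chosen with earlier results of these data known. The rule took the called genes with the highest and lowest fold; with none called, it took in each direction the 15 non-overlapping genes of smallest unadjusted p that reached 10 CPM in the organ with more, leaving out clone names, and the first 3 members of each list; some of these genes are not reported here.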

Additional observations from a re-analysis of the deposited data

How the results depend on the processing

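The count of genes called by edgeR was 0 in 18 of 20 alternatives, which changed the scaling, the filter, the libraries or the dispersion. The exceptions were other tools: the DESeq2 Wald test called 785 genes and limma-voom 3, with smallest adjusted p of 1.78e-25 and 0.0414; the cause was not tested. Leaving out 1 library each time called 0 to 0 genes, with 698 to 989 at an unadjusted p below 0.05. Where MLN or spleen then kept 2 libraries, the spread was pooled over all organs. The stricter filter on low counts, at 10 CPM in 3 libraries, gave the smallest edgeR adjusted p, 0.0510. Fitted without the heart libraries, 14352 genes were tested and 0 called, with 521 at an unadjusted p below 0.05. The smallest edgeR adjusted p was then 0.546. With the replicate number as a block 0 genes were called (487 at an unadjusted p below 0.05), and 0 with that block in the 6 lymphoid libraries alone (550). The labels name no animal or batch, so the numbers were not taken as pairs. Deviations of same-numbered libraries correlated at 0.139, 0.0163 and 0.221, and those of differently numbered libraries at -0.204 to 0.0994. Whether same-numbered libraries share an animal or batch was not tested.

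Of 1494 values of 75 named genes under the alternatives, 31 were called by another tool. The sign changed in 53 values, which belonged to 19 genes. In 14 of these values the log2 difference moved by more than the gene's SE. The other 1449 values kept their side of the threshold, and any sign change among them was within that SE. Among the 14, all but 1 of the leave-one-out changes of sign came without spleen 3, which gave the highest value of 8 of these genes. That of Bcl6 came without spleen 2. Leaving out 1 library each time, the log2 difference ran from -1.34 to 0.45 for Foxp3, from -1.76 to 1.01 for Bcl6, from -0.79 to 0.088 for Tgfbr2, from -4.67 to 0.45 for Tbx21 and from -1.85 to 0.15 for Gata3. It ran from -1.45 to 0.13 for Hspa5, from -0.26 to 0.47 for Hspa8, from -0.78 to 0.49 for Gimap3 and from -0.39 to 0.17 for Bcl2. Without spleen 3 and MLN 3 it was 0.40 for Foxp3, 0.30 for Hspa5, 0.51 for Hspa8 and 0.55 for Gimap3, and by limma-voom it was 1.10 for Tbx21; the cause was not tested. The median coefficient of biological variation was 102%; whether depth or spread limited the calls was not tested.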
